A study of Mus musculus with 4 samples.

Results

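Interferon-stimulated genes are the transcripts that a cell raises when an interferon binds its receptor. The 43 such mouse genes taken up here were chosen by symbol, with earlier results of these data known. Of them, 42 had a row in the study's expression table of 16857 genes, and Mx2 was not analysed here. The table comes from bulk RNA sequencing of 4 mouse adenoma colonoid lines, epithelial structures grown in culture, with 1 library per line. Lines 75 and 179 form the group G0, labelled as Apc-null and heterozygous for an allele called LSL-mTERT. Lines 157 and 236 form the group G2, labelled as Apc-null and homozygous for that allele. All 4 lines thus share the loss of Apc, and each is a single line. The study set colonoids of low and high chromosomal instability against each other, but neither name is tied to G0 or G2 in the labels. The labels give no age, treatment or time in culture.

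Type I interferons signal through a receptor pair and the kinases Jak1 and Tyk2 to a complex that holds Stat2 and Irf9 and binds the interferon-stimulated response element (ISRE). Type III interferons use another receptor, abundant on epithelia, and reach the same complex. Type II interferon signals through Jak1 and Jak2 to factors that bind the gamma-activated site (GAS). The induced genes include sensors of viral RNA, enzymes that block translation or degrade RNA, GTPases that attack vacuoles holding microbes, and the factors of the pathway itself.

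The promoters of 6 of these genes are shown because they hold ISRE letters close to the start of transcription and because their transcripts did not behave alike. Each is the 160 bases before the RefSeq start in GRCm38.p6, written 5′ to 3′ on the strand of the gene, and capitals mark matches on either strand to the ISRE letters searched, GAAA, any 2 bases and GAAA again, adjoining matches running together. Ifit3 and Oas3 rose in G2, and Ifit1, Isg15, Oas1a and Irgm1 did not pass the test described below.
Ifit3, chr19:34583369-34583528, + strand: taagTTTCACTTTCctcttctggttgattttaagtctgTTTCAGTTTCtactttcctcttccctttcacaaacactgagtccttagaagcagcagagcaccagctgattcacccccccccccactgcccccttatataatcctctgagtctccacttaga
Oas3, chr5:120777660-120777819, - strand: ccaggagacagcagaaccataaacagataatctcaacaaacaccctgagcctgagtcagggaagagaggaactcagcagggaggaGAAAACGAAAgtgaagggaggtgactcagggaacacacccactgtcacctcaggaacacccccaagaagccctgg
Ifit1, chr19:34640729-34640888, + strand: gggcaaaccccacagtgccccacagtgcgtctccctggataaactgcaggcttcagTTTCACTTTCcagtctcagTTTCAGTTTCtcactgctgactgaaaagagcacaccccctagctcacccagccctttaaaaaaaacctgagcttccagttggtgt
Isg15, chr4:156200819-156200978, - strand: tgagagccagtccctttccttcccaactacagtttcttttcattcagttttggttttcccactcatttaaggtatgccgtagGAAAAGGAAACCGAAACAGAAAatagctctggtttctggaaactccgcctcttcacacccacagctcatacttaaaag
Oas1a, chr5:120907526-120907685, - strand: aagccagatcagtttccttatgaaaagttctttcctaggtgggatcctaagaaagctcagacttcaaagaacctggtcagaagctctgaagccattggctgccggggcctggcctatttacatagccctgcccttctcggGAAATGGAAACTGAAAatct
Irgm1, chr11:48871421-48871580, - strand: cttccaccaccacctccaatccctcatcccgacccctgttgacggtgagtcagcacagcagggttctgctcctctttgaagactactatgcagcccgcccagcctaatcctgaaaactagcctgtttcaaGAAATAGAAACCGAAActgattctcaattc

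Promoter windows reaching from 250 bases before to 50 bases after a RefSeq start were at hand for 33 of the 42 genes. ISRE letters occurred in 17 of the 33 (51.5%), against 3.67% of the 10885 tested genes with a window. GAS letters, TTCNNNGAA, which read the same on both strands, occurred in 9 of the 33 (27.3%), against 8.18%. The ISRE and GAS matches overlapped in 2 genes, Bst2 and Ifitm3. Of the 11 genes with a window that rose in G2, 3 held ISRE letters (27.3%), namely Ifit3, Oas3 and Ifitm3, the last after its start. Of the 22 that did not pass, 14 held them (63.6%), including all 5 GTPase genes with a window. These shares describe letters in a window and were not tested against each other.

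The library totals lay between 16545429 and 17901744 counts, recovered from the deposited log2 values. Levels below are normalized counts, meaning counts divided by the size factor of the library. Tert stood at 93.3 and 97.5 in G0 and at 0 and 1 in G2. Transcripts of 4 Y-linked genes (Ddx3y, Eif2s3y, Kdm5d, Uty) were at 0 in both G0 libraries and between 296.2 and 526.4 in both G2 libraries, so sex-linked expression and group cannot be told apart in any result here. The epithelial markers Epcam, Krt8, Krt18, Krt19 and Cldn7 were abundant in all 4 libraries and did not pass the test. Cdx2, an intestinal identity factor, fell from 2395 and 3199 to 270.3 and 186.7, and the brush border gene Vil1 fell from 4734 and 6383 to 1731 and 786.9. Cdh1, the epithelial cadherin, rose from 14095 and 13728 to 25575 and 24578.

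Between G2 and G0, 16 of the 42 interferon-stimulated genes rose and 0 fell by the limma test at an adjusted p under 0.05. Over all 13981 genes tested, 5.93% rose and 4.56% fell. The 42 genes were chosen with earlier results of these data known, so their shares do not test the set. Of 53 further interferon-stimulated genes tested, described below, 11.3% rose, with a median log2 fold change of 0.19. The 42 genes had a median log2 fold change of 1.0, against 0.01 for all genes tested, and 36 of the 42 had a value above 0. Both G2 libraries lay above both G0 libraries for 31 of them (73.8%), against 29.2% of all genes, and below for 2, Irf1 and Irgm1, against 28.6%. Before adjustment, 24 genes were higher and 1, Irf1, was lower at a p under 0.05, against 14.1% higher and 12.7% lower of all genes, 26.8% in either direction. The genes that rose include those of OAS and IFIT proteins, PARP family proteins and 2 transcription factors. The sensors and the GTPases each had 0 of 6 tested genes past the test. With 6 genes each, these counts cannot be told from the shares over all genes.

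**Figure D1:**
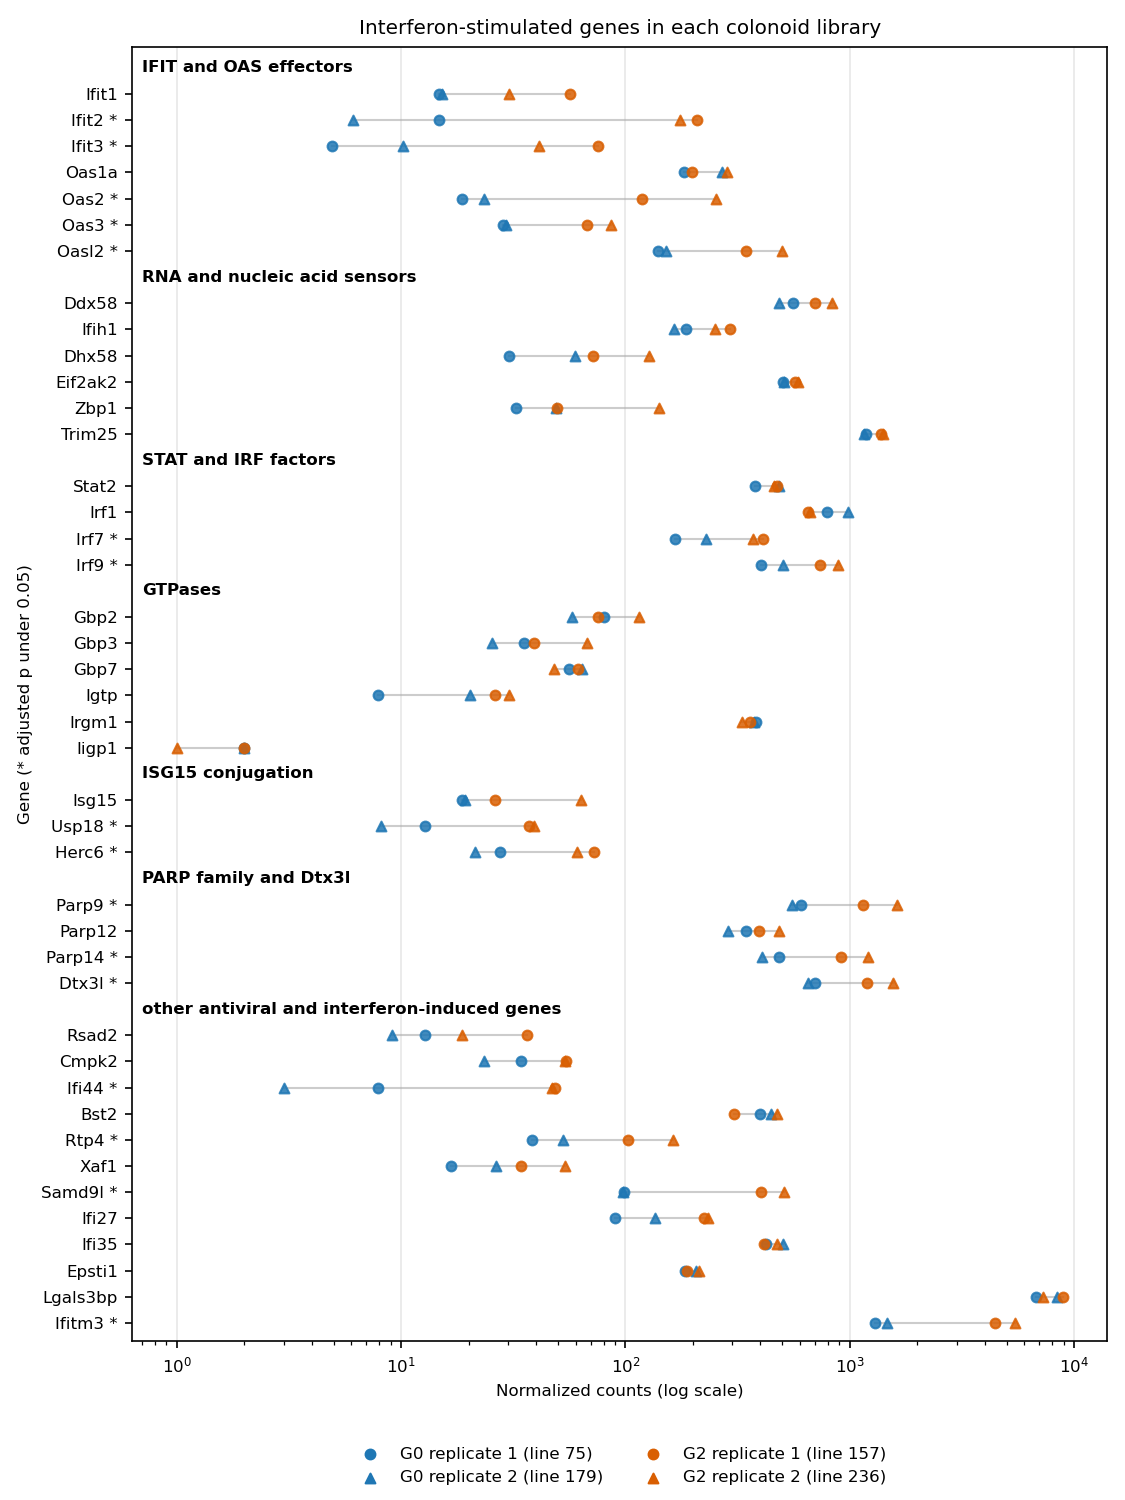
Normalized counts of the 42 genes on a log axis, 1 row per gene in groups by role, with a symbol for each library and an asterisk where the adjusted p was under 0.05. The G2 symbols lie apart from the G0 symbols, to the right, for 31 genes, and Ifit2, Oas2, Ifi44 and Ifit3 have the largest ratios of means.

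**Figure D2:**
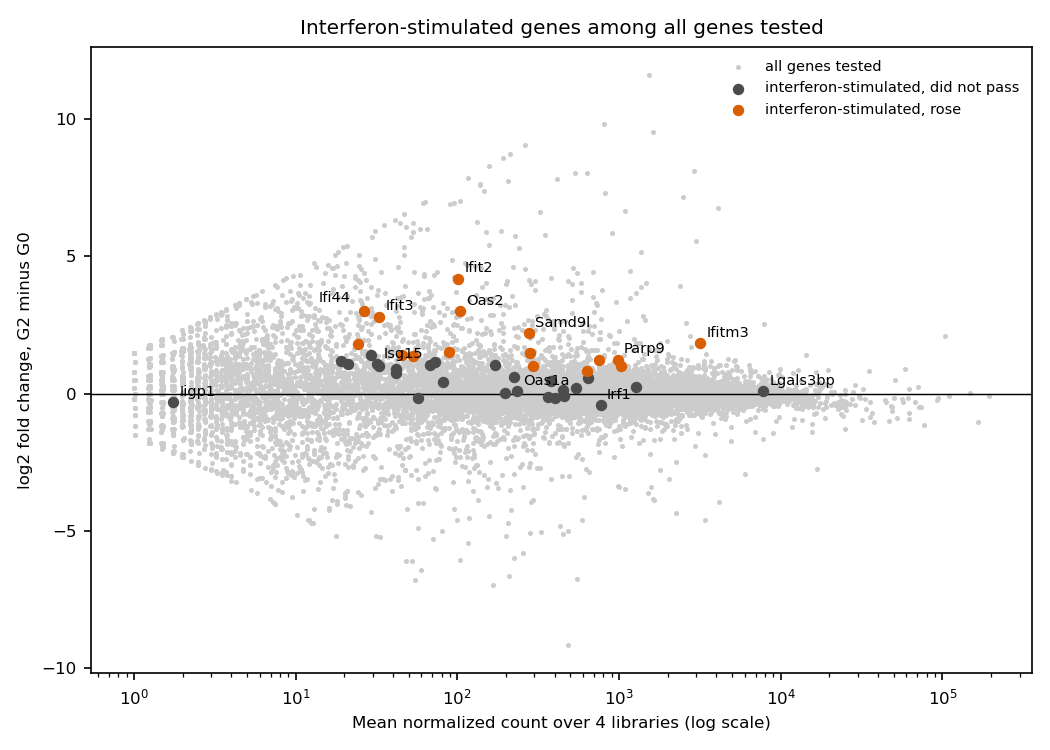
The log2 fold change (G2 minus G0) of each of 13981 genes against its mean normalized count on a log axis, with the 16 interferon-stimulated genes that rose in orange and the 26 that did not pass in dark grey. The coloured points sit above 0 from means of about 24.3 upward, inside the range that other genes cover.

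The IFIT and OAS effectors had 5 of 7 genes that rose (5.93% of all genes), with a median log2 fold change of 1.5. IFIT proteins bind viral RNA, and OAS enzymes make the short oligoadenylate that activates RNase L. Ifit2, on chromosome 19 from 34550550 to 34576534, had 14.7 and 6.1 normalized counts in G0 and 207.7 and 175.9 in G2. It was the gene with the largest rise of the 42, at 18.4-fold, with a log2 fold change of 4.19 (SE 0.45, adjusted p = 0.00264). Oas2, on chromosome 5 from 120730333 to 120749886, had 18.7 and 23.4 in G0 and 119 and 252.2 in G2, an 8.83-fold rise (log2 fold change 2.99, SE 0.42, adjusted p = 0.00692). The G2 lines differed from each other at Oas2 by more than the G0 lines, yet neither came near G0. Without G0 replicate 1 the ratio of Ifit2 was 31.5, and without G2 replicate 2 that of Oas2 was 5.66.

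Ifit3 had 4.9 and 10.2 normalized counts in G0 and 75.6 and 41.1 in G2, a 7.74-fold rise (log2 fold change 2.81, SE 0.52, adjusted p = 0.0194). Its ratio without G0 replicate 2 was 11.9. The G2 values were apart from the G0 values, but 51.24% of the 50-base words in Ifit3 transcripts also occur in its copy Ifit3b, so the split of reads between the 2 genes is uncertain. Ifit3b, named after its values were seen, had 2 and 4.1 in G0 and 33.3 and 13.7 in G2. Its adjusted p rounded to 0.05 and missed the threshold. Ifit1, the founding family member, stood at 14.7 and 15.2 in G0 and at 56.5 and 30.3 in G2, which fell short of the threshold (adjusted p = 0.0936) although the groups did not overlap.

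Oas3 had 28.5 and 29.5 normalized counts in G0 and 67.6 and 86 in G2, a 2.65-fold rise (log2 fold change 1.37, SE 0.32, adjusted p = 0.0431). Oasl2, an OAS-like protein, had 139.4 and 152.4 in G0 and 344.9 and 496.6 in G2, a 2.88-fold rise (log2 fold change 1.5, SE 0.24, adjusted p = 0.0106). Both were apart in every library. Among the OAS genes of this effector group, Oas1a alone did not pass. Oas1a stood at 181.7 and 270.2 in G0 and 197.7 and 282.5 in G2, with groups that overlapped (log2 fold change 0.09, SE 0.28, adjusted p = 0.859). It shares 57.57% of its 50-base words with Oas1g and is uncertain for that reason. Oas1g itself stood at 26.5 and 38.6 in G0 and 56.5 and 79.2 in G2 without passing (adjusted p = 0.126; named after its values were seen). Oas1c overlapped between groups, at 52 and 78.2 in G0 and 72.6 and 84.1 in G2. Oasl1 was lower in both G2 libraries, at 56 and 70.1 in G0 and 47.4 and 27.4 in G2. Oas1c and Oasl1 did not pass (adjusted p = 0.603 and 0.241) and were named after their values were seen.

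The sensors of RNA and other nucleic acids had 0 of 6 genes past the limma test (10.5% of all genes). Of the 6, 3 were upward at an unadjusted p under 0.05 (14.1% of all genes), and the median log2 fold change was 0.59. All 6 had both G2 libraries above both G0 libraries, as did 29.2% of all genes tested. Ddx58, which encodes the RNA helicase RIG-I, had 559.7 and 482.5 normalized counts in G0 and 700.9 and 834.8 in G2 (log2 fold change 0.56, SE 0.17, adjusted p = 0.0855). Ifih1, which encodes the related sensor MDA5, had 186.6 and 164.6 in G0 and 291.5 and 251.2 in G2 (adjusted p = 0.109). Dhx58, their regulator, had 30.4 and 59.9 in G0 and 71.6 and 128 in G2 (adjusted p = 0.155). These 3 helicase genes thus stood higher in G2 by 1.47-fold, 1.55-fold and 2.21-fold without passing.

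Zbp1, a sensor of Z-form nucleic acids, had 32.4 and 48.8 normalized counts in G0 and 49.4 and 141.7 in G2 (adjusted p = 0.243). Line 157 stood close to the higher G0 line and line 236 far above it. Eif2ak2, the RNA-activated kinase that stops translation, had 504.7 and 506.9 in G0 and 570.8 and 586.5 in G2 (adjusted p = 0.441). Trim25, the ubiquitin ligase that activates RIG-I, had 1177 and 1158 in G0 and 1384 and 1402 in G2 (adjusted p = 0.252). The differences of these 2 genes were small, at 1.14-fold and 1.19-fold, and their lines lay close together within each group.

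Of the 4 STAT and IRF factors among the 42, 2 rose (5.93% of all genes). Irf7, the factor that amplifies type I interferon production, on chromosome 7 from 141263183 to 141266499, had 165.9 and 228.6 normalized counts in G0 and 410.5 and 369.5 in G2, a 1.98-fold rise (log2 fold change 1.0, SE 0.22, adjusted p = 0.0353). Irf9, the DNA-binding subunit of the ISRE complex, had 403.6 and 503.8 in G0 and 734.2 and 887.5 in G2, a 1.79-fold rise (log2 fold change 0.84, SE 0.18, adjusted p = 0.0336). Its partner Stat2 did not follow, with 380 and 485.6 in G0 and 476 and 458.4 in G2 and groups that overlapped (log2 fold change 0.12, SE 0.18, adjusted p = 0.713). Irf1, a factor induced mainly through GAS, was lower in both G2 libraries, at 653.5 and 663.7 against 791.4 and 977.2 in G0. Irf1 did not pass (log2 fold change -0.42, SE 0.16, adjusted p = 0.155). Of the 4 factors, 3 had a log2 fold change above 0 and 1 below.

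The GTPases had 0 of 6 genes past the limma test (10.5% of all genes) and 0 at an unadjusted p under 0.05 (26.8% of all genes). Their median log2 fold change was 0.15. Guanylate-binding proteins and immunity-related GTPases are best known as targets of type II interferon. Gbp2 had 80.5 and 57.9 normalized counts in G0 and 75.6 and 114.4 in G2, and the groups overlapped (adjusted p = 0.433). Gbp3 had 35.3 and 25.4 in G0 and 39.3 and 67.4 in G2 (adjusted p = 0.275), and Igtp 7.9 and 20.3 against 26.2 and 30.3 (adjusted p = 0.239). Both were higher in both G2 libraries without passing. Gbp7 had 56 and 64 in G0 and 61.5 and 47.9 in G2, and Irgm1, a regulator of the other immunity-related GTPases, had 383.9 and 373.8 in G0 and 361 and 329.4 in G2. Iigp1 was near the limit of detection in every library, with 4 counts in G0 and 3 in G2 in all. A count of 0 in 1 library allows a level of up to 2.93 to 3.05 normalized counts.

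Isg15 is a ubiquitin-like protein, Herc6 the ligase that attaches it in mice and Usp18 the protease that removes it and also restrains the type I receptor. Usp18, on chromosome 6 from 121245906 to 121270917, had 12.8 and 8.1 normalized counts in G0 and 37.3 and 39.1 in G2, a 3.66-fold rise (log2 fold change 1.81, SE 0.43, adjusted p = 0.0428). Herc6 had 27.5 and 21.3 in G0 and 72.6 and 60.6 in G2, a 2.73-fold rise (log2 fold change 1.42, SE 0.35, adjusted p = 0.0466). The libraries of both genes were apart by group, although 13.7% of the exonic bases of Herc6 lie in exons of the gene model Gm45193, whose reads cannot be told apart. Isg15 had 18.7 and 19.3 in G0 and 26.2 and 63.5 in G2, so its lines differed 2.42-fold within G2, and it did not pass (adjusted p = 0.219).

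In the group of PARP family genes and Dtx3l, 3 of 4 rose (5.93% of all genes), and these 3 lie side by side on chromosome 16. Parp9 and Dtx3l form an enzyme pair that modifies histones and STAT proteins, and their genes are neighbours on chromosome 16, Dtx3l from 35926515 to 35939027 and Parp9 from 35938470 to 35972621. Parp9 had 605.8 and 550.6 normalized counts in G0 and 1150 and 1624 in G2, a 2.40-fold rise (log2 fold change 1.24, SE 0.19, adjusted p = 0.0103). Dtx3l had 703 and 653.2 in G0 and 1188 and 1558 in G2, a 2.02-fold rise (log2 fold change 1.0, SE 0.17, adjusted p = 0.0144). Their exons share 458 bases, which is 9.4% of the exonic bases of Parp9 and 8% of those of Dtx3l. Parp14, which lies beside them from 35831892 to 35871518, had 482.1 and 407.3 in G0 and 916.7 and 1200 in G2, a 2.38-fold rise (log2 fold change 1.24, SE 0.19, adjusted p = 0.00932). All 3 neighbours were higher in line 236 than in line 157. Parp12, on chromosome 6, had 344.6 and 286.5 in G0 and 392.3 and 484.8 in G2 without passing (adjusted p = 0.183). Parp10 and Parp11, relatives outside this group, overlapped between G0 and G2, with log2 fold changes of 0.17 and 0.13. Neither passed (adjusted p = 0.659 and 0.755), and both were named after their values were seen.

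Of the other 12 interferon-induced genes, 4 rose (5.93% of all genes). Ifitm3, a membrane protein that blocks viral fusion, on chromosome 7 from 141009590 to 141010744, had 1299 and 1459 normalized counts in G0 and 4458 and 5454 in G2. The rise was 3.59-fold (log2 fold change 1.84, SE 0.15, adjusted p = 0.00103), the smallest adjusted p of the 42 genes. Samd9l, a translation-blocking antiviral protein, had 98.2 and 97.5 in G0 and 400.4 and 511.2 in G2, a 4.66-fold rise (log2 fold change 2.2, SE 0.22, adjusted p = 0.00212). At both genes the G0 lines agreed within 1.12-fold, and every G2 value was more than 3 times any G0 value. Ifi44 had 7.9 and 3 in G0 and 48.4 and 46.9 in G2, an 8.74-fold rise (log2 fold change 3.02, SE 0.52, adjusted p = 0.0146), and its ratio without G0 replicate 1 was 15.6. Rtp4, a protein with a role in trafficking of chemosensory receptors, had 38.3 and 52.8 in G0 and 102.9 and 162.3 in G2, a 2.91-fold rise (log2 fold change 1.5, SE 0.34, adjusted p = 0.0382). In Rtp4, 13.9% of exonic bases lie in exons of another gene model.

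The remaining 8 genes of this kind did not pass. Rsad2, the antiviral enzyme viperin, had 12.8 and 9.1 normalized counts in G0 and 36.3 and 18.6 in G2 (adjusted p = 0.183). Its neighbour on chromosome 12, the nucleotide kinase gene Cmpk2, had 34.4 and 23.4 in G0 and 54.5 and 53.8 in G2 (adjusted p = 0.162). Ifi27, a mitochondrial protein, came closest to the threshold, with 90.3 and 136.1 in G0 and 224.9 and 233.6 in G2 (adjusted p = 0.0535). All 3 genes, and Xaf1 with them, were higher in both G2 libraries, as were 29.2% of all genes tested. Bst2 (tetherin, which holds virus particles at the cell surface), Ifi35, Epsti1 and Lgals3bp overlapped between groups, with log2 fold changes between -0.15 and 0.10. Lgals3bp, a secreted glycoprotein, stood at 6729 and 8353 in G0 and 8895 and 7275 in G2 (adjusted p = 0.744).

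**Figure D3:**
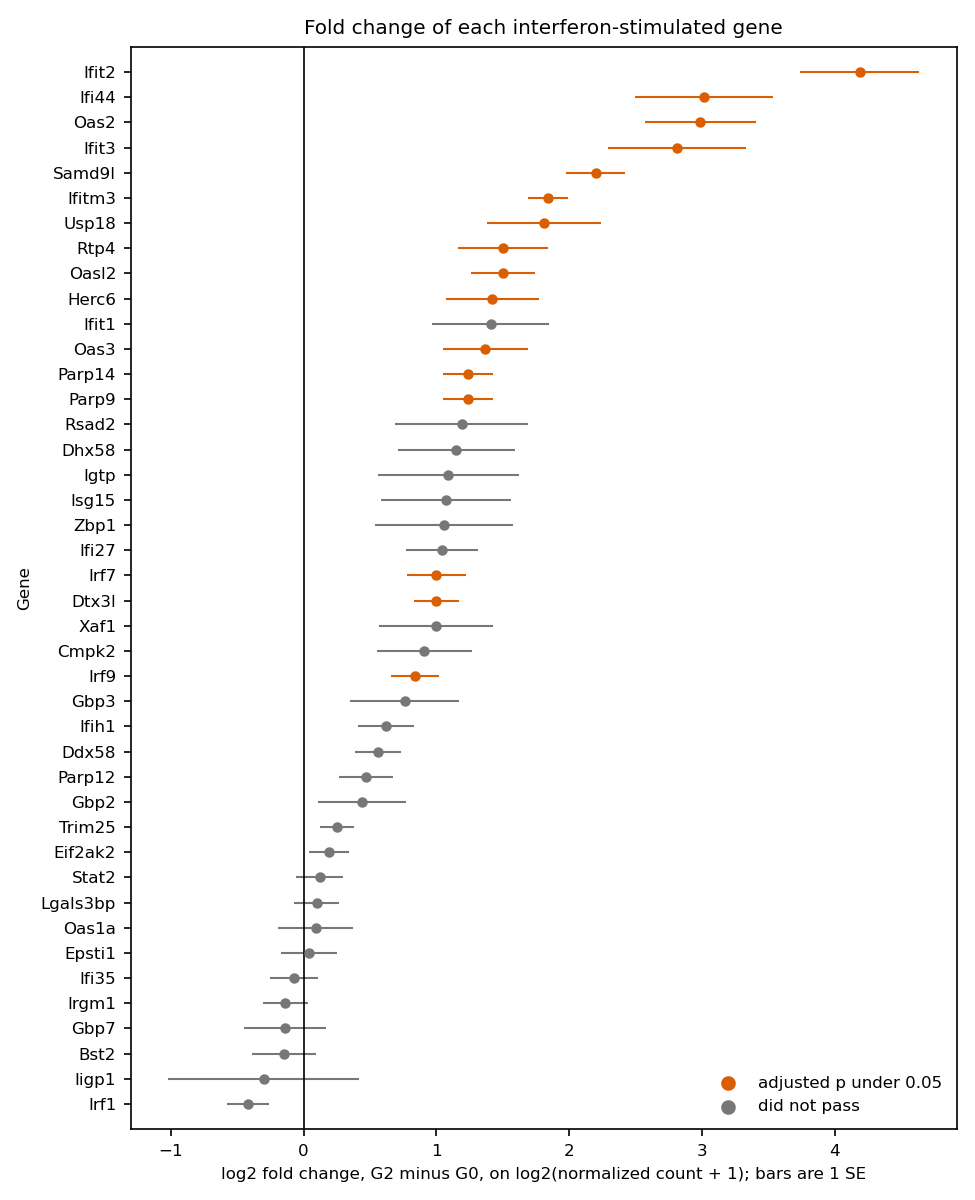
The log2 fold change of each of the 42 genes, G2 minus G0, with bars of 1 SE; genes with an adjusted p under 0.05 are in orange. Values run from -0.42 at Irf1 to 4.19 at Ifit2, and genes with low counts such as Iigp1 carry the widest bars.

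Levels can be set side by side only per length. In normalized counts per kb of exon, Lgals3bp stood highest in G0, at 2649, followed by Ifitm3 at 2034, Bst2 at 466.0, Ifi35 at 269.3 and Irf1 at 222.4. At the other end stood Iigp1 at 0.343, Ifi44 at 0.889, Rsad2 at 2.53, Herc6 at 2.63 and Ifit2 at 2.65. In G2 Ifitm3 stood at 7310 per kb and was above Lgals3bp, at 2840. Bst2 and Ifi35 stood at 430.6 and 256.4 per kb in G2. Ifit2 reached 48.9 per kb in G2, close to the level of Parp14 in G0, 47.8.

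The 2 G2 lines differed from each other at several genes. Line 236 was above line 157 for 28 of the 42 genes, with a median log2 difference of 0.20, against -0.01 over all genes tested. Oas2, Zbp1 and Isg15 were 2.12-fold, 2.87-fold and 2.42-fold higher in line 236, while Ifit1, Ifit3 and Rsad2 were 1.86-fold, 1.84-fold and 1.95-fold higher in line 157. In G0, line 179 was above line 75 for 25 genes with a median difference of 0.05. The median absolute difference between lines was 0.31 in G0 and 0.32 in G2 on the log2 scale, against 0.26 and 0.21 over all genes tested.

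The rest of the pathway was described from 6 lists. Interferon ligands were hardly detected: of 8 ligand genes with a row, 5, including Ifnb1, Ifng, Ifnl2 and Ifnl3, had 0 counts in all 4 libraries. Ifna13 had 1 normalized count in 1 G2 library, Ifne had 3.9 in 1 G2 library, and Ifnz had 1 and 4.1 in G0 and 1 and 2.9 in G2. A count of 0 allows up to about 3 counts in a library. All 6 receptor genes were detected, with means over the 4 libraries between 461.8 and 4088. By limma 0 of 6 receptor genes passed, with 2 at an unadjusted p under 0.05, both lower in G2 (12.7% of all genes). Those were Ifnlr1, the type III receptor chain, at 522.4 and 526.2 in G0 and 414.5 and 384.1 in G2 (adjusted p = 0.170), and Ifngr1, a type II receptor chain, at 1727 and 1789 against 1121 and 1537 (adjusted p = 0.182).

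Among 8 JAK kinases and other STAT and IRF factors, 0 rose and 1 fell by limma, with 2 higher and 1 lower before adjustment at a p under 0.05 (14.1% and 12.7% of all genes). Irf8, a factor best known from myeloid cells, fell from 47.1 and 76.2 to 11.1 and 17.6 (adjusted p = 0.0316). Jak1 had 2642 and 2557 in G0 and 2589 and 2562 in G2, and Tyk2 overlapped between groups as well. Jak2 and Irf2, a repressor, were higher in both G2 libraries without passing (adjusted p = 0.0652 and 0.0804). Jak1, Jak2, Tyk2 and Irf2 were named after their values were seen.

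Of 11 negative regulators, 0 passed by limma (10.5% of all genes) and 0 had an unadjusted p under 0.05 (26.8% of all genes). Socs1, an inhibitor of JAK kinases that interferon induces, had 42.2 and 50.8 normalized counts in G0 and 30.3 and 18.6 in G2 (adjusted p = 0.187). Irf2bp1, a corepressor, had 1769 and 1900 in G0 and 2164 and 2248 in G2 (adjusted p = 0.231). Of 12 RNA sensing adaptors and kinases tested, 0 passed, with 1 upward at an unadjusted p under 0.05 (14.1% of all genes). That was Traf3, an adaptor ligase, at 1469 and 1231 in G0 and 1788 and 1932 in G2 (adjusted p = 0.0929), and the kinase Ikbke came next, at 1697 and 1535 against 2237 and 1874 (adjusted p = 0.191).

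**Figure D4:**
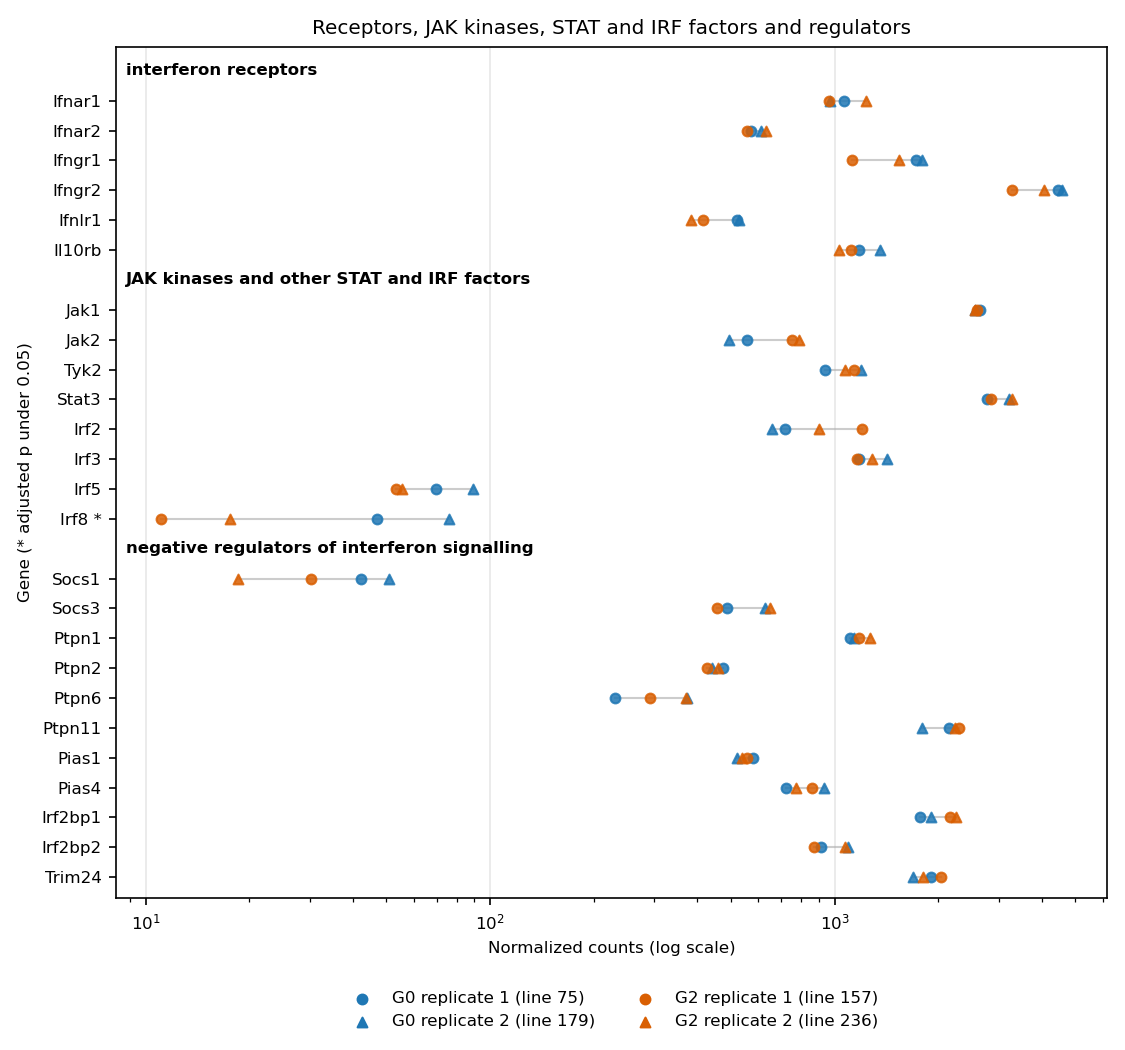
Normalized counts on a log axis of receptor genes, JAK kinases with other STAT and IRF factors, and negative regulators, with a symbol for each library and an asterisk where the adjusted p was under 0.05. Of the genes shown, Irf8, to the left in G2, carries an asterisk.

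Of 53 further interferon-stimulated genes tested, 6 rose and 1 fell (11.3% rose, against 5.93% of all genes), with a median log2 fold change of 0.19. Ifit1bl1, an Ifit1-like gene, rose 26.6-fold from 17.7 and 14.2 to 520.4 and 326.5 normalized counts (adjusted p = 0.000517). Ifitm1, a relative of Ifitm3, rose 5.28-fold from 25.5 and 29.5 to 125.1 and 165.2 (adjusted p = 0.00574). Gbp9 rose 3.95-fold from 28.5 and 26.4 to 95.8 and 121.2, and Irgm2 rose 2.22-fold from 82.5 and 70.1 to 160.4 and 178.9 (adjusted p = 0.0116 and 0.0331). GTPase genes outside the 42 thus included some that rose. The other 2 that rose, Gbp6 and Ifitm2, share 70.65% and 48.51% of their 50-base words with other genes, so their values are uncertain, and both were named after their values were seen. The gene that fell was Slfn2, a growth regulator of the Schlafen family, from 582.3 and 592.2 to 165.4 and 278.6 (adjusted p = 0.0177).

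Markers of other cell types stood beside these genes as follows, where 5.93% of all genes tested rose. In bulk RNA, fewer cells of a type and less RNA per cell cannot be told apart. Of 9 macrophage markers, 6 had a row and 2 of 5 tested rose. Adgre1, Lyz2 and Tyrobp had no row. Cd14 went from 990.7 and 1230 to 2106 and 2197 normalized counts, and Csf1r from 0 and 0 to 16.1 and 4.9. Cd68 overlapped between groups, at 1129 and 2110 in G0 and 1151 and 1892 in G2. Fcer1g and Laptm5 were higher in both G2 libraries without passing. Summed over the list, levels were 2122 to 3341 in G0 and 3283 to 4120 in G2, nearly all from Cd14 and Cd68. Itgam was at 0 in every library. Of 11 lymphocyte markers, 4 had a row, with sums of 1 to 2 in G0 and 2 to 3 in G2, and Ptprc and Cd4 were at 0 in every library. Of 3 plasmacytoid dendritic cell markers, Ccr9 had no row and Siglech was at 0 in every library. Ly6d rose from 56 and 93.5 to 705.9 and 380.2, and whether its transcripts came from such cells was not tested. Fibroblast markers summed to 4.9 to 6.1 in G0 and 10.1 to 10.8 in G2, with Dcn and Pdgfra at 0 throughout and 1 of 2 tested, Col3a1, risen from 0 and 0 to 7.1 and 6.8, while the other, Col1a1, had 4.9 and 4.1 in G0 and 1 and 2 in G2 (adjusted p = 0.306). Endothelial markers summed to 22.6 to 27.5 in G0 and 99.8 to 113.5 in G2, and both tested genes, Tek and Vwf, rose. Pecam1 had at most 2 in any library. Cdh5 and Cd34 had 1 in G0 replicate 1 and 0 in the other libraries, and Kdr had no row. The part of these cell types in the values of the interferon-stimulated genes was not tested.

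The calls depended on the number of libraries and on how the spread was estimated. Without any 1 library, 0 of the 42 genes passed by limma, with 16 to 19 upward at an unadjusted p under 0.05, as the whole table then had 0 calls. The 16 genes that rose kept a positive log2 fold change in all 4 of these fits. That sign was fixed beforehand, since both G2 libraries lay above both G0 libraries for each of the 16. The ratio moved by over 1.5 times for 4 of them, Ifit2, Ifi44, Ifit3 and Oas2, as given above. Without the intensity trend in limma, 4 of the 16 passed, Ifit2, Oas3, Samd9l and Ifitm3.

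**Figure D5:**
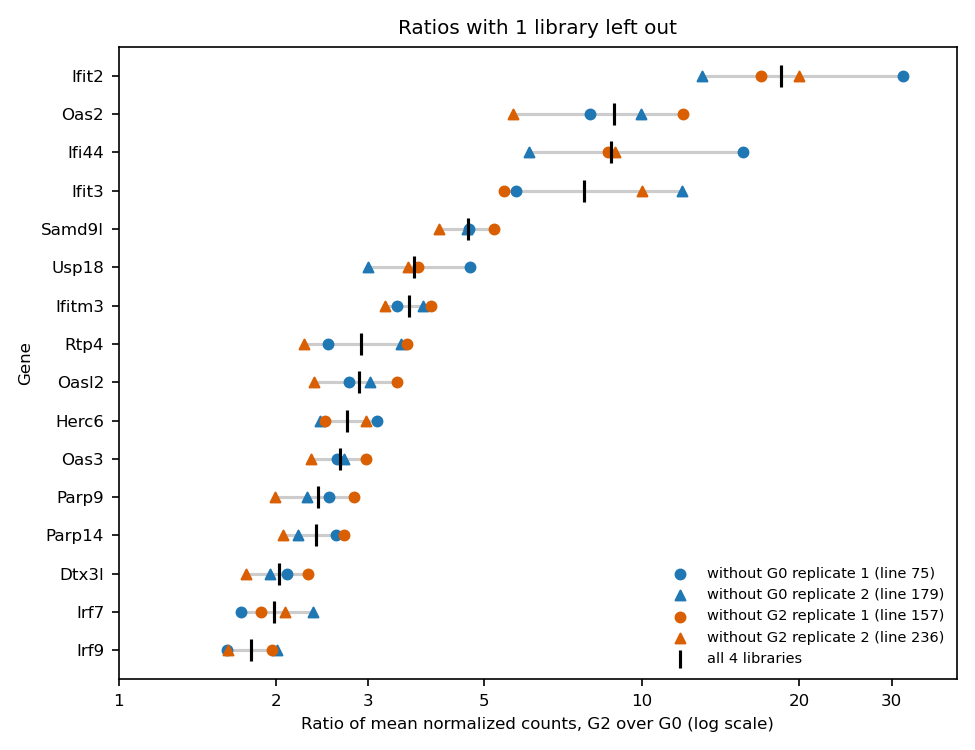
Ratio of mean normalized counts, G2 over G0, on a log axis for the 16 genes that rose, with all 4 libraries (bar) and with each library left out (symbols). No ratio is below 1.61, and those of Ifit2, Ifi44, Ifit3 and Oas2 spread the most. The direction could not turn, since both G2 libraries lay above both G0 libraries for each of these genes.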

How the data were processed

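The authors deposited 1 table of log2 values per gene and library, with the same lowest value, 6.508, in all 4 libraries. Per the submitters' processing notes the tools named include DESeq2 1.32.0 with R 3.5.2, StringTie 2.1.1, HISAT2 2.1.0 and bcl2fastq 2.20.0, on build mm10. Not given in the sources used here are the transformation, annotation and strand setting. A variance-stabilizing transformation was inverted with that lowest value as its only constant, and 100% of values became whole within 0.001 after division by 1 factor per library. No count model was run, since the deposited unit is a log2 value.

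limma 3.58.1 in R 4.3.3 (eBayes, intensity trend) was fitted on log2(normalized count + 1) with the group as its only term, for the 13981 genes whose mean reached 1. On that scale the change of low genes is understated. Tests were two-sided, with Benjamini-Hochberg adjustment over all genes and a threshold of 0.05. A fold in words is the ratio of mean normalized counts. Nothing in the labels says that the lines came from separate mice, so p-values cover only line-to-line spread, which may be technical. The steps were tested on simulated data. Floors of 3 counts cover counting error only.

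The genes and lists were chosen with earlier results of these data known. Named were all 42 genes, and from each pathway list the genes that passed (up to 5) or else the 2 with the smallest p, plus genes marked in the text as named after their values were seen. Positions and promoters are from RefSeq GRCm38.p6, the assembly of mm10. Exon lengths, exon overlaps and shared 50-base words are from GENCODE M21.

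Alternatives were another pseudocount, filter, scaling or scale, no intensity trend, a replicate block, and leaving out each library. Some genes of the pathway are not reported here.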

Additional observations from a re-analysis of the deposited data

How the results depend on the processing

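The count of genes called was 1467, against 623 without the intensity trend and 3503 with the replicate number as a block. Of the 16 interferon-stimulated genes that rose, 10 passed with no filter on low values and 4 without the intensity trend. Those that did not pass without the filter were Herc6, Irf7, Irf9, Oas3, Rtp4 and Usp18. The replicate block, which rests on a shared number alone (correlation of the line differences 0.109 across genes), gave 22 that rose, with all 16 among them, and 1 that fell, Irf1. Leaving out 1 library gave 0 to 0 calls over all genes and 0 to 0 among the 42, with 2376 to 3221 genes at an unadjusted p under 0.05. The median log2 fold change of the 42 was 0.38 on the deposited log2 scale, which compresses low values, and 0.73 to 1.05 with 1 library left out. Pseudocounts of 0.5 and 5, a mean of at least 5, the deposited scale and scaling to library sums or the upper quartile gave 15 to 17 genes that rose and 0 that fell. Among the genes recomputed, signs turned for 13 that had not passed, all when 1 library was left out, and for Jak1 and Cldn7 also when scaled to library sums (0.05 and 0.02). With 1 library left out, log2 fold changes ran from -0.19 to 0.38 for Oas1a, -0.06 to 0.30 for Stat2, -0.32 to 0.04 for Gbp7, -0.60 to 0.01 for Iigp1, -0.46 to 0.17 for Bst2, -0.19 to 0.06 for Ifi35, -0.05 to 0.12 for Epsti1, -0.05 to 0.26 for Lgals3bp, -0.85 to 0.50 for Ifnz, -0.04 to 0.01 for Jak1, -0.15 to 0.05 for Cldn7, -0.02 to 0.53 for Krt19 and -0.11 to 0.24 for Tyk2. The cause was not tested.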
